A study of Sus scrofa with 12 samples.

Results

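The comparison described here sets pig (Sus scrofa) oocytes at 44 h of maturation in vitro against oocytes at 12 h, across all measured genes. It uses 6 of the 12 RNA-seq libraries of a time series with 3 libraries at each of 0, 12, 28 and 44 h, chosen by the time in their titles: replicates 1, 2 and 4 of 44 h and replicates 1, 3 and 5 of 12 h. All 12 libraries held oocytes stripped of their cumulus cells and, per the series title, matured in a medium of chemically defined composition. The labels name no altered gene and no added agent, and time in culture is the only difference they give between the groups. Per the labels, total RNA was taken with an AllPrep micro kit and libraries were made with a SMARTer stranded total-RNA kit for very small inputs. The breed and age of the donors, the number of oocytes per library and whether the libraries of each time are separate animals or cultures are not given in the sources used here. The p-values therefore measure the spread between these libraries, which may be technical.

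A fully grown oocyte rests in prophase of the first meiotic division with a large store of maternal RNA and a nucleus that has become nearly silent. During maturation it resumes meiosis, breaks down the nuclear envelope, builds the first spindle, extrudes a polar body and stops again in metaphase of the second division. In mammals generally, parts of the stored RNA are translated, held back or degraded in order over these steps, and changes in poly(A) tail length are a main means of that control.

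The 6 libraries held 23055288 to 26015373 counts each, and 12977 of 28965 annotated genes had enough counts to be tested. Levels are given as CPM, each library's counts scaled to a common total, with the mean ± SD over 3 libraries. A level is a share of the library, and no added standard RNA is named in the labels, so a lower share cannot be told apart from a larger total of other RNA, nor fewer cells from less RNA per cell. Replicate 5 of 12 h stood apart from the other libraries on the second axis of a multidimensional scaling, at -1.55, and carried the highest share of mitochondrially encoded counts of the 6, 1.35%, against 0.566% to 0.800% at 44 h and 0.654% and 0.758% in the other two 12 h libraries. The oocyte growth factor gene BMP15 averaged 3964 ± 110.0 CPM at 44 h and 4346 ± 373 CPM at 12 h. Other oocyte markers, ZP2, ZP3, ZP4, GDF9, NLRP5 and ZAR1, were lower at 44 h, as described below. The 15 tested markers of cumulus and granulosa cells summed to 352 CPM at 44 h and 424 CPM at 12 h. Of the 13 markers with too few counts to be tested, FSHR and LUM had 0 counts in all 6 libraries and the others had 2 to 79 counts over the 6. Strand use in counting and the handling of ambiguous reads are not given in the sources used here, so genes with near-identical copies and genes that overlap others are uncertain.

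Between 44 h and 12 h the changes ran mostly downward. At an adjusted p under 0.05 (Benjamini-Hochberg, quasi-likelihood test of edgeR), 1280 of 12977 genes differed, 9.86% of those tested. Of these, 324 rose (2.5% of genes tested) and 956 fell (7.37%), so that 74.7% of the calls were falls. The median log2 fold change was -0.61 over the genes that fell and 0.27 over those that rose, against 0.00245 over all genes tested. At least a 2-fold change was measured for 18 genes that rose (0.139%) and 205 that fell (1.58%), and at least a 4-fold change for 7 and 42. The genes that fell summed to 100212 CPM at 44 h and 140076 CPM at 12 h, and the genes that rose to 73403 CPM at 44 h and 61369 CPM at 12 h. The levels of the 3 and 3 libraries did not overlap for 3440 genes (26.5%), which include 1261 of the 1280 called, and 2974 genes had an unadjusted p under 0.05. The count of rises was the less stable of the 2: leaving out replicate 5 of 12 h left 135, leaving out replicate 1 of 44 h left 133 and leaving out its replicate 2 left 130, while the same 3 fits called 744, 737 and 708 falls. DESeq2 called 554 rises and 1088 falls.

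**Figure D1:**
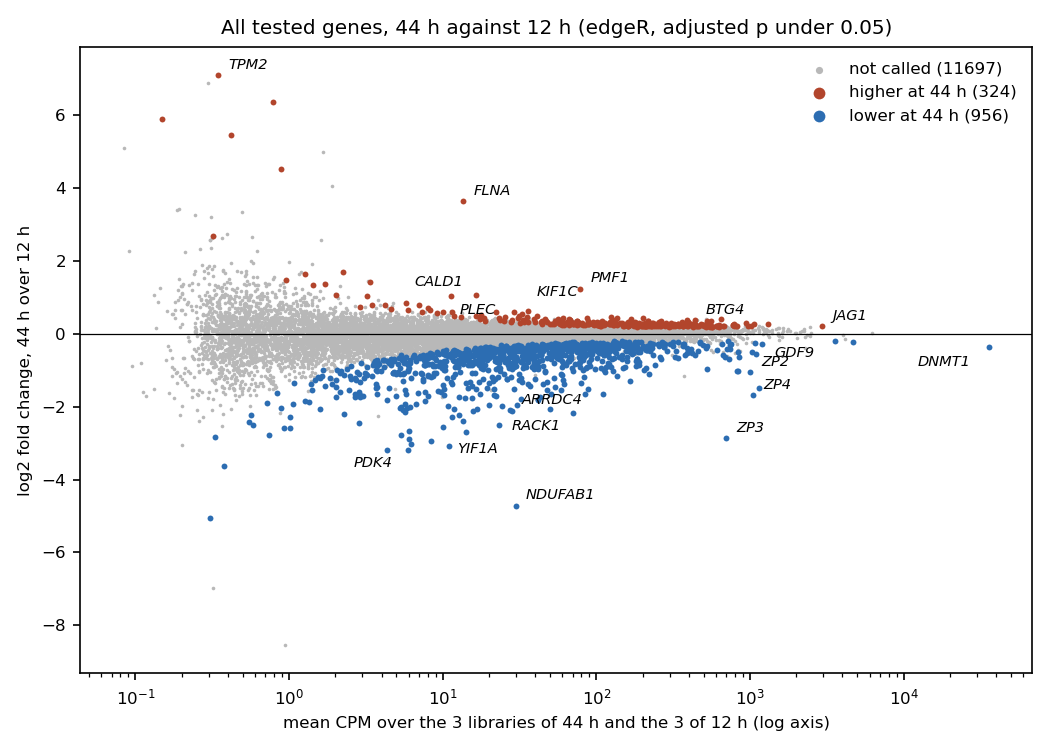
Each point is 1 of the 12977 tested genes, with the mean CPM over the 6 libraries on a log axis and the log2 fold change of 44 h over 12 h on the vertical axis. Red points are the 324 genes that rose and blue points the 956 that fell by the edgeR test; beyond a 2-fold change there are 18 red and 205 blue points, and ZP3, ZP4 and ZP2 stand apart among the genes with high counts.

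The zona pellucida genes, which encode the glycoprotein coat around the egg, fell by 2.09-fold to 7.23-fold. ZP3 (ENSSSCG00000007691, Sscrofa11.1 chromosome 3, 9934761 to 9944941), the gene of a structural protein of that coat, had 172, 174 and 161 CPM in the 44 h libraries and 1103, 1175 and 1388 CPM in the 12 h libraries. The 44 h values lay close together and far below the lowest 12 h value. ZP3 fell 7.23-fold (log2 fold change -2.85, SE 0.14, edgeR adjusted p 1.68e-08). ZP4 (chromosome 14, 53577135 to 53584546) had 539.6, 424 and 533 CPM at 44 h, against 1454, 1635 and 1693 CPM at 12 h, a fall of 3.20-fold with no overlap (edgeR adjusted p 3.92e-10). ZP2 (chromosome 3, 24863730 to 24877522) had 607, 595 and 756 CPM at 44 h, against 1279, 1389.9 and 1417 CPM at 12 h. It fell 2.09-fold without overlap (edgeR adjusted p 6.68e-09). Whether the 3 zona genes differ in the size of their falls was not tested.

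Transcripts of the growth factors that the oocyte secretes toward its cumulus cells had smaller fold changes. GDF9, an oocyte growth factor of the TGF-beta family, had 1084, 1091 and 1059.5 CPM at 44 h and 1253, 1344 and 1358 CPM at 12 h. The groups did not overlap, and GDF9 fell by 0.29 on the log2 scale (edgeR adjusted p 0.00119). BMP15, its close relative, had a log2 fold change of -0.13 and an edgeR adjusted p of 0.259. JAG1, a ligand of Notch receptors, had 3133, 3212 and 3144 CPM at 44 h and 2809, 2759 and 2639 CPM at 12 h, and rose by 0.21 on the log2 scale (edgeR adjusted p 0.0164), a call that ended without 12 h replicate 5 (0.0840) or 44 h replicate 2 (0.0706). In all, 5 of the 14 tested genes of the zona and secreted-factor list fell (35.7%, against 7.37% of all genes tested). In the same list 1 rose (7.14%, against 2.5%), and the median log2 fold change was -0.16. The fifth fall was that of KITLG, which also stands in the list of cumulus and granulosa markers and is described there.

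**Figure D2:**
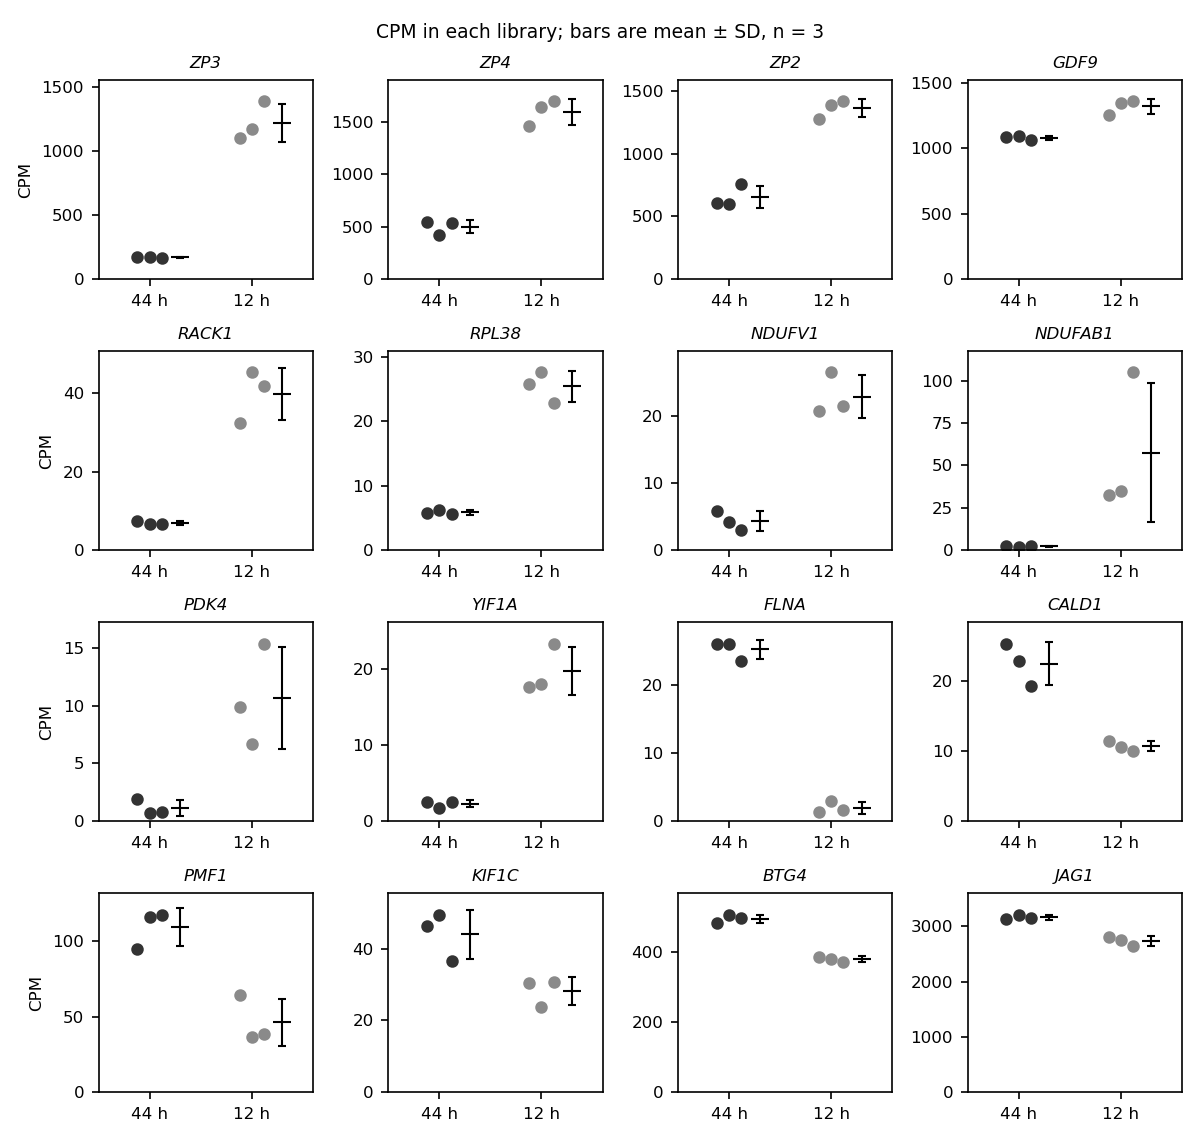
CPM of 16 genes in each of the 3 libraries of 44 h (dark points) and the 3 of 12 h (grey points), with the mean ± SD beside them; every axis starts at 0. The 44 h points of ZP3 lie at 161 to 174 CPM and those of FLNA at 23.6 to 26.1 CPM, each clear of the 12 h points, and a single 12 h library sets the wide bar of NDUFAB1.

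Transcripts of the cytosolic ribosome were lower at 44 h for most of its genes. Of 59 tested ribosomal protein genes, which encode the protein part of the machine that makes all cell proteins, 46 fell (78.0%, against 7.37% of all genes tested) and 0 rose, with a median log2 fold change of -0.73. For the small subunit 23 of 28 genes fell (median -0.92), and for the large subunit 23 of 31 (median -0.69); whether the subunits differ was not tested. With no adjustment, 1 of the 59 was higher in edgeR at a p under 0.05, and DESeq2 and limma-voom called 0 higher. Summed over the 59 genes, the level was 2911, 2949 and 2931 CPM in the 44 h libraries and 4107, 4314 and 4448 CPM in the 12 h libraries, with no overlap. The count of falls was stable when single libraries were left out, at 21 to 23 in the small and 23 to 24 in the large subunit. Ribosomal protein genes have many near-identical copies in mammalian genomes, so single members are uncertain.

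The ribosomal protein genes that fell did so by very different amounts. RACK1 (chromosome 2, 57279857 to 57284855), a scaffold protein on the small subunit, had 7.47, 6.59 and 6.77 CPM at 44 h and 32.4, 45.2 and 41.7 CPM at 12 h. The groups were far apart, and the fall was 5.72-fold (log2 fold change -2.52, SE 0.13, edgeR adjusted p 6.57e-12). RPL26 (chromosome 12, 53548321 to 53553451), of the large subunit, had 4.35, 2.44 and 4.66 CPM at 44 h, against 26.2, 23.8 and 24.0 CPM at 12 h, a fall of 6.46-fold (edgeR adjusted p 4.34e-09). RPL38 had 5.74, 6.28 and 5.59 CPM at 44 h and 25.8, 27.6 and 22.9 CPM at 12 h, a fall of 4.32-fold (edgeR adjusted p 2.65e-10). RPL10A fell 3.48-fold and RPL23A 3.16-fold, each without overlap. The smallest called changes were those of RPL22, by -0.31 on the log2 scale, in the large subunit, and RPS20, by -0.39, in the small subunit; RPL34 had the largest, at -3.20, with 0.840 ± 0.591 CPM at 44 h and 7.83 ± 1.85 CPM at 12 h. RPL22, RPS20 and RPL34 were chosen as extremes after their values were seen.

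Nuclear genes of the mitochondrial respiratory chain, which passes electrons to oxygen and drives ATP synthesis, were lower in part. Of 64 tested genes, 30 fell and 0 rose, with a median log2 fold change of -0.36, and 59 had a lower mean at 44 h. In edgeR 0 of the 64 were higher at an unadjusted p under 0.05, and DESeq2 and limma-voom called 0 higher. The summed level was 1832, 1935 and 1913 CPM at 44 h and 2366, 2484 and 2582 CPM at 12 h, without overlap. Of the 30 falls, 15 were among 32 genes of complex I and 15 among 32 of complexes II to V. That was 46.9% of each list, against 7.37% of all genes tested. Leaving out 44 h replicate 1 left 10 and 9, and leaving out 12 h replicate 5 left 12 and 10.

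Within complex I, the entry point of electrons from NADH, NDUFAB1 (chromosome 3, 22619492 to 22635288), the mitochondrial acyl carrier protein, had 2.20, 1.86 and 2.51 CPM at 44 h, against 32.6, 35.1 and 104.8 CPM at 12 h. Replicate 5 of 12 h was far above the other two 12 h libraries, which were themselves far above every 44 h library. The log2 fold change of NDUFAB1 was -4.71 (SE 0.54, edgeR adjusted p 0.000637), and -3.95 without 12 h replicate 5. NDUFV1 (chromosome 2, 4958508 to 4964208), a core subunit that binds NADH, had 5.85, 4.23 and 2.96 CPM at 44 h and 20.7, 26.5 and 21.6 CPM at 12 h, a fall of 5.26-fold (edgeR adjusted p 2.49e-09). NDUFA11 fell 2.98-fold, with means of 4.70 ± 0.151 CPM at 44 h and 14.006 ± 0.638 CPM at 12 h, and NDUFB9 fell 1.89-fold. Of the later complexes, CYC1, the cytochrome c1 of complex III, averaged 11.06 ± 1.47 CPM at 44 h and 20.2 ± 3.29 CPM at 12 h, and ATP5PF, of the ATP synthase, 20.7 ± 2.23 CPM at 44 h and 37.8 ± 3.96 CPM at 12 h (both 1.83-fold lower at 44 h). COX7A2L, which helps respiratory complexes assemble together, fell 1.63-fold.

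Other mitochondrial groups had fewer calls or none. Of 68 mitochondrial ribosomal protein genes 15 fell (22.1%, against 7.37% of all genes tested) and 0 rose. The median log2 fold change was -0.14. Without adjustment 2 were higher in edgeR at a p under 0.05, DESeq2 called 1 higher and limma-voom 0. MRPL52 averaged 7.17 ± 1.03 CPM at 44 h and 16.3 ± 0.716 CPM at 12 h, and MRPL2 5.83 ± 0.523 CPM at 44 h and 12.4 ± 1.78 CPM at 12 h. All 13 genes encoded by the mitochondrial genome itself had lower means at 44 h, with a median log2 fold change of -0.49, but 0 were called by edgeR, by DESeq2 or by limma-voom, and 0 had an unadjusted p under 0.05. Their summed level was 5668, 6024 and 8119 CPM at 44 h and 7749, 6515 and 13676 CPM at 12 h. The groups overlapped, and 12 h replicate 5, the library with the highest share of mitochondrially encoded counts, was the highest.

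Several single genes of mitochondria, membrane traffic and ribosome assembly were among the 10 steepest falls with at least 10 CPM at 12 h. YIF1A (chromosome 2, 6095877 to 6102037), a protein of transport between the endoplasmic reticulum and the Golgi, had 2.58, 1.78 and 2.55 CPM at 44 h and 17.6, 18.1 and 23.3 CPM at 12 h, a fall of 8.52-fold (edgeR adjusted p 9.05e-12). ETFB, a subunit of the flavoprotein that carries electrons from fatty acid oxidation, had 1.66, 1.202 and 1.22 CPM at 44 h, against 10.2, 10.7 and 12.1 CPM at 12 h, and fell 8.08-fold. SLIRP, which binds mitochondrial RNA, had 2.54, 1.43 and 1.78 CPM at 44 h and 14.5, 15.5 and 14.3 CPM at 12 h, a fall of 7.67-fold. No 44 h library of these genes came near the lowest 12 h library. ROMO1, a small mitochondrial membrane protein, fell 7.35-fold to 1.45 ± 0.250 CPM at 44 h, against 10.7 ± 1.09 CPM at 12 h. TBL3, which acts in making the small ribosomal subunit, fell 5.90-fold to 2.90 ± 0.208 CPM at 44 h, against 17.1 ± 2.29 CPM at 12 h.

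Genes of fuel use held some of the steepest changes, and a pair of them peaked at 12 h. PDK4 (chromosome 9, 75246002 to 75260134), a kinase that switches off pyruvate dehydrogenase and so keeps pyruvate out of the citric acid cycle, had 1.96, 0.698 and 0.811 CPM at 44 h and 9.90, 6.70 and 15.4 CPM at 12 h. The groups did not overlap, and PDK4 fell 9.15-fold (log2 fold change -3.19, SE 0.40, edgeR adjusted p 2.13e-05); without 44 h replicate 1 the log2 fold change was -3.81. ARRDC4 (chromosome 7, 81656763 to 81669494), an arrestin-domain protein known to limit glucose uptake, had 9.82, 11.3 and 10.6 CPM at 44 h and 48.0, 42.2 and 46.7 CPM at 12 h, a fall of 4.32-fold. TKT, the transketolase of the pentose phosphate pathway, averaged 54.5 ± 0.955 CPM at 44 h and 102.3 ± 14.2 CPM at 12 h, and IDH3B, of the citric acid cycle, 12.8 ± 1.31 CPM at 44 h and 23.5 ± 1.496 CPM at 12 h. CS, the citrate synthase, was the only called rise of the list, with 456 ± 16.3 CPM at 44 h and 401 ± 16.1 CPM at 12 h, with an edgeR adjusted p of 0.0461. That call ended in 11 alternatives, 8 of which left out 1 library (adjusted p 0.055 to 0.31 over the 11). Of the 47 genes of this list 8 fell (17.0%, against 7.37% of all genes tested), or 5 without 12 h replicate 5 or 44 h replicate 2. The 1 rise made 2.13%, against 2.5% of all genes tested. The median log2 fold change over the 47 was -0.04, so most members lay near 0.

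**Figure D3:**
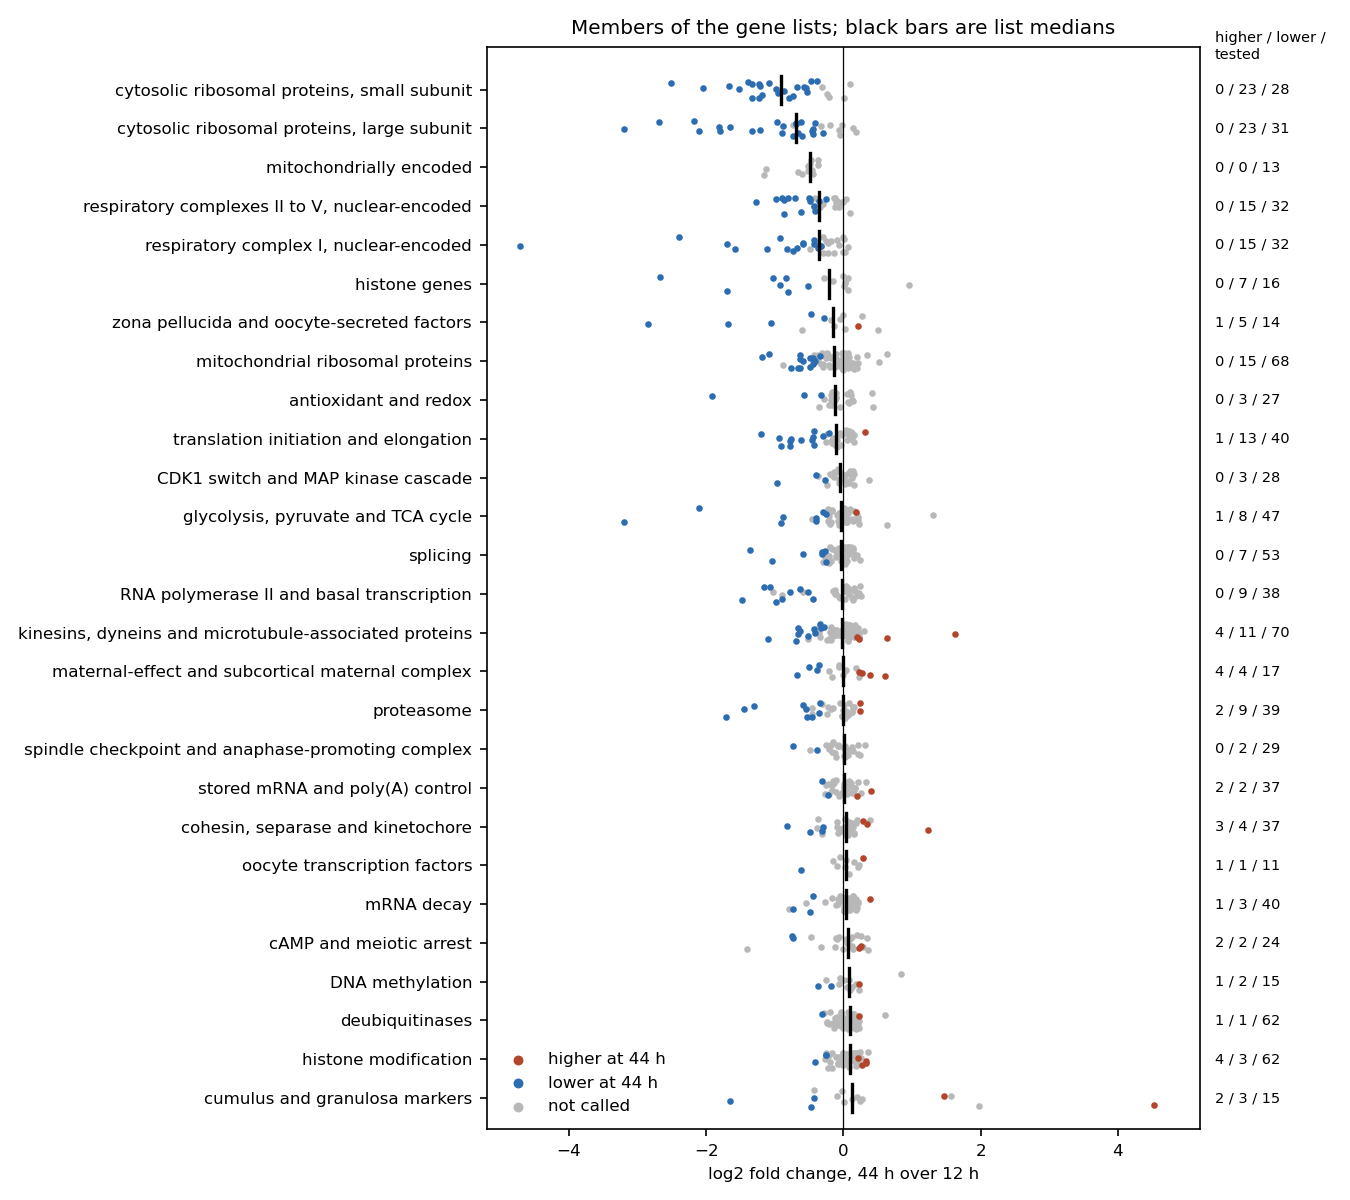
Each row is a gene list, each point 1 of its tested members at its log2 fold change of 44 h over 12 h, and the black bar the median; counts at the right are members that rose, members that fell and members tested. The cytosolic ribosomal and nuclear-encoded respiratory lists lie mostly left of 0, with medians between -0.92 and -0.35. The mitochondrially encoded list has a median of -0.49 and the mitochondrial ribosomal list one of -0.14. Most other lists have medians close to 0 with a tail of falls.

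Transcripts of some genes that make RNA and protein held a lower share at 44 h. Of 38 genes of RNA polymerase II and the basal transcription factors 9 fell (23.7%, against 7.37% of all genes tested) and 0 rose, with a median log2 fold change of -0.03; 5 were higher in edgeR at a p under 0.05 without adjustment, DESeq2 called 3 higher and limma-voom 1. POLR2A (chromosome 12, 52779825 to 52810165), the catalytic subunit, had 689.8, 609.9 and 695 CPM at 44 h and 1039, 1009 and 1036 CPM at 12 h. The 12 h values lay in a narrow band above all 44 h values, and POLR2A fell 1.55-fold (edgeR adjusted p 2.52e-06). It overlaps SENP3 on the same strand. POLR2F, a subunit shared by the nuclear polymerases, fell 2.80-fold to 7.71 ± 1.01 CPM at 44 h, against 21.6 ± 1.80 CPM at 12 h. GTF2F1, of the initiation factor TFIIF, fell 2.23-fold to 84.2 ± 11.3 CPM at 44 h, against 188 ± 18.4 CPM at 12 h.

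Among 40 translation initiation and elongation genes 13 fell (32.5%, against 7.37% of all genes tested) and 1 rose (2.5%, the share over all genes). The median was -0.10 on the log2 scale. EIF3M and EIF3F, subunits of the initiation factor eIF3, fell 1.91-fold and 2.29-fold, and EEF1D, of the elongation factor eEF1B, 1.89-fold. EIF3M had 138, 135 and 159.6 CPM at 44 h and 265, 278 and 284 CPM at 12 h. BTF3, which binds newly made peptides at the ribosome, was the gene that rose, with 178 ± 10.9 CPM at 44 h and 143 ± 4.997 CPM at 12 h (edgeR adjusted p 0.00263). Of 53 splicing genes 7 fell (13.2%, against 7.37% of all genes tested), or 4 without 44 h replicate 2, and 0 rose. The median was -0.04. Without adjustment 2 were higher in edgeR at a p under 0.05, and DESeq2 and limma-voom called 0 higher. SRSF6, a splicing regulator, fell 2.58-fold to 19.99 ± 1.202 CPM at 44 h, against 51.7 ± 6.81 CPM at 12 h.

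Proteasome genes encode the complex that degrades tagged proteins. Of 39 tested, 9 fell (23.1%, against 7.37% of all genes tested) and 2 rose (5.13%, against 2.5%). The median log2 fold change was -0.01. The falls numbered 6 without replicate 3 or 5 of 12 h or replicate 1 of 44 h. PSMB7, a catalytic subunit of the proteasome core, had 19.2, 17.95 and 22.4 CPM at 44 h and 54.7, 51.6 and 55.6 CPM at 12 h. It fell 2.72-fold (edgeR adjusted p 5.73e-10). PSMB4, of the same core, fell 2.48-fold and PSMC3, an ATPase of the cap, 1.499-fold. PSMD11 and PSMD12, both of the cap, rose by 0.25 and 0.24 on the log2 scale; both calls ended when replicate 3 or 5 of 12 h or replicate 2 of 44 h was left out.

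Histone genes had 7 falls (43.8%, against 7.37% of all genes tested) and 0 rises among 16 tested. The median log2 fold change was -0.22. Without adjustment 0 were higher in edgeR at a p under 0.05, and DESeq2 and limma-voom called 0 higher. H2BE1, an H2B gene, fell 6.41-fold to 1.62 ± 0.270 CPM at 44 h, against 10.4 ± 1.66 CPM at 12 h. H2AC11 had 87.3, 83.9 and 81.6 CPM at 44 h and 142, 207 and 166 CPM at 12 h, a fall of 2.03-fold, and H2BC11 fell 1.76-fold. H2AC11 and H2BC11 overlap each other on opposite strands, so their reads may be shared.

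Of 15 genes that write, maintain or remove DNA methylation 2 fell (13.3%, against 7.37% of all genes tested) and 1 rose (6.67%, against 2.5%), with a median log2 fold change of 0.08, and DESeq2 called 2 falls and 3 rises. DNMT1 (chromosome 2, 68981564 to 69029919), the maintenance DNA methyltransferase, had 32173, 28207 and 33409 CPM at 44 h and 42595, 36919 and 41541 CPM at 12 h. The groups did not overlap, and DNMT1 fell 1.29-fold (log2 fold change -0.37, SE 0.07, edgeR adjusted p 0.00148). UHRF1, which brings DNMT1 to newly copied DNA, averaged 659 ± 21.2 CPM at 44 h and 563 ± 42.0 CPM at 12 h and rose by 0.23 on the log2 scale (edgeR adjusted p 0.0387), while its relative UHRF2 averaged 3328 ± 85.0 CPM at 44 h and 3789 ± 129.7 CPM at 12 h and fell by 0.19 (edgeR adjusted p 0.0430). Both calls ended without 12 h replicate 5, 44 h replicate 1, 2 or 4 and other single libraries (adjusted p up to 0.161 for UHRF1 and 0.175 for UHRF2). TET3, an enzyme that oxidises 5-methylcytosine, had 603, 548 and 540.0 CPM at 44 h and 524, 459 and 459.5 CPM at 12 h, with an edgeR adjusted p of 0.0583, and DNMT3A, a de novo methyltransferase, 259.6 ± 13.1 CPM at 44 h and 251 ± 7.53 CPM at 12 h.

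Maternal-effect genes, whose products the early embryo needs before its own genome is active, went both ways. Of 17 tested, 4 fell and 4 rose, with a median log2 fold change of -0.01. Each share was 23.5%, against 7.37% falling and 2.5% rising over all genes tested. The 4 falls were OOEP and NLRP5, of the subcortical maternal complex, and ZAR1L and ZAR1, which bind stored mRNA. OOEP had 71.1, 76.3 and 88.0 CPM at 44 h and 125, 127 and 123 CPM at 12 h, and fell 1.59-fold (edgeR adjusted p 2.55e-06). ZAR1L had 748, 654 and 675 CPM at 44 h and 936, 985 and 1024 CPM at 12 h, a fall of 1.42-fold (edgeR adjusted p 5.54e-06). NLRP5 fell 1.31-fold and ZAR1 1.28-fold, and ZAR1 was no longer called without 12 h replicate 3 (edgeR adjusted p 0.0681). PADI6, also needed for the subcortical complex, had 1459.6 ± 22.5 CPM at 44 h and 1632 ± 97.7 CPM at 12 h (edgeR adjusted p 0.223). The 4 rises were NPM3, BTG4, AGO2 and UHRF1. NPM3, of the nucleoplasmin family, had 37.6, 33.8 and 33.3 CPM at 44 h and 20.8, 23.5 and 24.5 CPM at 12 h, a rise of 1.52-fold (edgeR adjusted p 0.000263). AGO2, which binds small RNAs, averaged 335 ± 7.20 CPM at 44 h and 278 ± 20.9 CPM at 12 h and rose by 0.27 on the log2 scale (edgeR adjusted p 0.00825, and 0.0617 without 12 h replicate 5). The UHRF1 call ended without that library too, which left 2 rises in the list.

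BTG4 (chromosome 9, 39208138 to 39368307), an adaptor that brings the CCR4-NOT deadenylase to maternal mRNAs, had 485, 508 and 497 CPM at 44 h and 388, 382 and 372 CPM at 12 h. The groups were clear of each other, and BTG4 rose 1.304-fold (log2 fold change 0.38, SE 0.06, edgeR adjusted p 0.000188). It was the only rise among 40 mRNA decay genes, of which 3 fell and whose median was 0.04; the shares that rose (2.5%) and fell (7.5%) were those over all genes tested (2.5% and 7.37%). CNOT7, a deadenylase subunit of CCR4-NOT, had 296 ± 13.3 CPM at 44 h and 266 ± 8.33 CPM at 12 h (edgeR adjusted p 0.140), and TUT7, which adds uridines to short poly(A) tails, 69.4 ± 4.50 CPM at 44 h and 60.3 ± 5.27 CPM at 12 h (edgeR adjusted p 0.200). The 3 genes that fell encode exosome subunits, of the complex that degrades RNA from its 3′ end. EXOSC9 averaged 49.9 ± 6.02 CPM at 44 h and 83.4 ± 2.79 CPM at 12 h (edgeR adjusted p 3.49e-06) and overlaps BBS7 and a small RNA gene; the calls of EXOSC2 and EXOSC5 ended without 12 h replicate 3 or 44 h replicate 2, among other libraries.

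Among 37 genes of mRNA storage and poly(A) control 2 rose and 2 fell, with a median of 0.01. Each share was 5.41%, against 2.5% rising and 7.37% falling over all genes tested. CPSF4, of the complex that recognises the polyadenylation signal, rose 1.31-fold to 52.9 ± 1.93 CPM at 44 h, against 40.3 ± 0.970 CPM at 12 h (edgeR adjusted p 0.00347). CPEB1, which binds the cytoplasmic polyadenylation element, had 229.7, 238 and 224 CPM at 44 h and 215, 234 and 229 CPM at 12 h, and the groups overlapped (edgeR adjusted p 0.844). CPEB2, a relative, fell by 0.31 on the log2 scale, a call that ended without 12 h replicate 3 (edgeR adjusted p 0.0802) or 44 h replicate 2 (0.0583). The list had 0 falls without 12 h replicate 3. YBX2, a packaging protein of stored mRNA in germ cells, had 742 ± 51.1 CPM at 44 h and 674 ± 18.2 CPM at 12 h (edgeR adjusted p 0.259).

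Of 28 genes of CDK1 control and the MAP kinase cascade, which drive meiosis, 3 fell (10.7%, against 7.37% of all genes tested) and 0 rose, with a median log2 fold change of -0.05; 1 was higher in edgeR at a p under 0.05 without adjustment, DESeq2 called 1 higher and limma-voom 0. The cyclin B genes CCNB1 and CCNB2, partners of CDK1, had 553, 559.5 and 571 CPM and 503, 521 and 564 CPM at 44 h. At 12 h they had 554, 563 and 507 CPM and 562, 515 and 500.1 CPM. The values overlapped for both, as they did for CDK1 itself, which averaged 81.7 ± 6.65 CPM at 44 h and 90.4 ± 5.23 CPM at 12 h. WEE2, an oocyte kinase that holds CDK1 back, had 2353 ± 77.4 CPM at 44 h and 2144 ± 72.1 CPM at 12 h (edgeR adjusted p 0.145). MAP2K2, a kinase directly above the MAP kinases, had 14.9, 14.04 and 16.5 CPM at 44 h and 31.8, 27.96 and 29.0 CPM at 12 h, and fell 1.95-fold (edgeR adjusted p 4.65e-07). MOS, the oocyte kinase at the top of that cascade, fell 1.21-fold to 687 ± 25.5 CPM at 44 h, against 828 ± 93.1 CPM at 12 h (edgeR adjusted p 0.0129). The MOS call ended when replicate 3 of 12 h (0.118) or replicate 2 (0.0746) or 4 (0.0532) of 44 h was left out, and leaving out 12 h replicate 3 or 44 h replicate 2 left 1 fall in the list.

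Of 37 cohesin, separase and kinetochore genes 4 fell (10.8%, against 7.37% of all genes tested) and 3 rose (8.11%, against 2.5%), with a median log2 fold change of 0.04, and all 3 rises were lost without 12 h replicate 5. Of 29 spindle checkpoint and anaphase-promoting complex genes 2 fell (6.90%, near the share over all genes) and 0 rose, with a median of 0.01; in that list 2 were higher in edgeR at a p under 0.05 without adjustment, and DESeq2 and limma-voom called 0 higher. ESPL1, the separase that cuts cohesin, had 407, 369 and 364 CPM at 44 h and 549, 537 and 508 CPM at 12 h, and fell 1.40-fold without overlap (edgeR adjusted p 1.17e-05). SPC24, of the NDC80 kinetochore complex, fell 1.77-fold to 86.8 ± 3.30 CPM at 44 h, against 154 ± 10.8 CPM at 12 h. BUB1, a checkpoint kinase, fell 1.31-fold and CDC26, of the anaphase-promoting complex, 1.67-fold. PMF1, of the MIS12 kinetochore complex, had 94.9, 116 and 118 CPM at 44 h and 64.3, 36.7 and 38.3 CPM at 12 h, a log2 fold change of 1.24 with an SE of 0.30. Its edgeR adjusted p was 0.0374, and the call ended in 9 of the fits that left out 1 library, those without 12 h replicates 3 or 5 and each 44 h replicate among them (0.0576 to 0.135). PMF1 overlaps SMG5, BGLAP and SLC25A44. The rises of AURKB and CENPA also ended without 12 h replicate 5 (edgeR adjusted p 0.126 and 0.0757). The list also had 0 rises without 44 h replicate 2 and 2 falls without 44 h replicate 1, where DESeq2 on all libraries called 4 rises and limma-voom 3.

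In the list on cAMP, whose level keeps the oocyte in prophase arrest, 2 of 24 genes fell and 2 rose, with a median of 0.07. Each share was 8.33%, against 7.37% falling and 2.5% rising over all genes tested. The adenylate cyclases, which make cAMP, moved apart: ADCY6 had 86.7, 77.8 and 79.7 CPM at 44 h and 137, 151 and 122 CPM at 12 h, a fall of 1.68-fold (edgeR adjusted p 1.46e-06), while ADCY3 had 469, 447 and 450.0 CPM at 44 h and 366, 385 and 389 CPM at 12 h, a rise of 0.26 on the log2 scale (edgeR adjusted p 0.00809). AKAP12, an anchor of protein kinase A, had 22.6, 19.7 and 17.6 CPM at 44 h and 39.1, 25.2 and 35.3 CPM at 12 h and fell 1.66-fold (edgeR adjusted p 0.00111). PDE8A, a phosphodiesterase that breaks cAMP down, was the other rise, with an edgeR adjusted p of 0.0398, and its call ended in 8 of the fits that left out 1 library (up to 0.142).

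The largest rise among genes with at least 10 CPM was that of FLNA (ENSSSCG00000033299, chromosome X, 124890142 to 124917171), a filamin that crosslinks actin filaments. FLNA had 25.997, 26.094 and 23.6 CPM at 44 h and 1.35, 3.03 and 1.67 CPM at 12 h. The 12 h values differed among themselves by over 2-fold and lay far below every 44 h value, with a rise of 12.5-fold (log2 fold change 3.65, SE 0.39, edgeR adjusted p 5.91e-05). Other genes of the actin cytoskeleton and of filament linkage were among the 10 largest rises at that level. CALD1 (chromosome 18, 14267955 to 14539017), a protein that binds actin and myosin, had 25.3, 22.9 and 19.3 CPM at 44 h and 11.5, 10.5 and 10.1 CPM at 12 h, a rise of 2.10-fold (edgeR adjusted p 1.52e-06). PLEC (chromosome 4, 685456 to 753859), a plakin that ties intermediate filaments to other structures, had 19.3, 15.7 and 10.8 CPM at 44 h and 7.16, 6.40 and 8.60 CPM at 12 h, a rise of 2.07-fold (edgeR adjusted p 0.00202). No alternative ended the calls of FLNA, CALD1 or PLEC.

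KIF1C (chromosome 12, 51897763 to 51924437), a kinesin motor that moves cargo along microtubules, had 46.1, 49.4 and 36.4 CPM at 44 h and 30.5, 23.8 and 30.6 CPM at 12 h, a rise of 1.55-fold (edgeR adjusted p 0.000783). It was 1 of 4 rises (5.71%) among 70 kinesin, dynein and microtubule genes, of which 11 fell (15.7%) and whose median was -0.02. Over all genes tested 2.5% rose and 7.37% fell. Without 44 h replicate 2 the list had 7 falls and 1 rise. Without 12 h replicate 3 or 44 h replicate 1 it also had 1 rise. TUBA1B, an alpha-tubulin, had 543, 529 and 553 CPM at 44 h and 805, 845 and 880.2 CPM at 12 h and fell 1.56-fold (edgeR adjusted p 5.55e-07). KIF22, a kinesin on chromosome arms, fell 1.61-fold. The light chains DYNLL1 and DYNLL2 of dynein moved apart: DYNLL1 averaged 606 ± 49.1 CPM at 44 h and 817 ± 36.4 CPM at 12 h, a fall, and DYNLL2 432 ± 20.3 CPM at 44 h and 368 ± 9.14 CPM at 12 h, a rise whose call ended when replicate 3 or 5 of 12 h, or replicate 1 or 2 of 44 h, was left out. MAP1B, a protein that binds microtubules, had 193 ± 3.70 CPM at 44 h and 165 ± 10.2 CPM at 12 h (edgeR adjusted p 0.0561).

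Smaller rises among the 10 largest at this level were those of PPP1R14B, an inhibitor of a protein phosphatase, by 1.52-fold, DPPA2, a protein of early embryonic cells, by 1.58-fold, and CUX1 and PRKD2, a homeobox factor and a protein kinase, by 1.51-fold each. DPPA2 had 11.6, 10.1 and 8.59 CPM at 44 h and 7.33, 7.56 and 4.32 CPM at 12 h. The calls of DPPA2, CUX1 and PRKD2 ended without 12 h replicate 5 or 44 h replicate 1 (edgeR adjusted p 0.0512 to 0.171).

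A pair of scarce genes had counts at 44 h and none at 12 h. TPM2, a tropomyosin that coats actin filaments, had 15, 25 and 13 counts in the 44 h libraries and 0 in each 12 h library. Against the limit that 3 counts over the 12 h group set, 0.042 CPM, its level of 0.691 CPM at 44 h was at least 16.4-fold higher (edgeR adjusted p 0.000333). AK5, an adenylate kinase, had 7, 10 and 6 counts at 44 h and 0 in each 12 h library, at least 7.14-fold higher (edgeR adjusted p 0.0135). At 0 h TPM2 stood at 0.351 ± 0.253 CPM and AK5 at 0.106 ± 0.102 CPM. Named after their values were seen, the growth factor gene IGF1 had 30, 25 and 9 counts at 44 h and 0, 1 and 0 counts at 12 h, and IGFBP5, which binds insulin-like growth factors, 37, 44 and 39 counts at 44 h and 1, 0 and 0 counts at 12 h. Both stood apart from 12 h in every 44 h library, with edgeR adjusted p of 0.000227 for IGF1 and 3.89e-05 for IGFBP5.

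In the lists of histone modification and deubiquitinase genes more means were higher than lower at 44 h. The tilt was not particular to them. Means were also higher for 25 of 40 mRNA decay genes and 22 of 37 cohesin, separase and kinetochore genes. Other lists leaned lower. Of 62 histone modification genes 4 rose (6.45%, against 2.5% of all genes tested) and 3 fell (4.84%, against 7.37%). A higher mean at 44 h was found for 41, with a median log2 fold change of 0.09. Over all genes tested 50.4% had a higher mean. EZH1, a histone H3 methyltransferase, had 65.2, 61.4 and 64.6 CPM at 44 h and 50.2, 49.1 and 53.1 CPM at 12 h and rose 1.25-fold (edgeR adjusted p 0.00874). The acetyltransferase EP300 fell 1.33-fold to 149 ± 18.2 CPM at 44 h, against 198 ± 22.3 CPM at 12 h (edgeR adjusted p 0.00581, and 0.0514 without 44 h replicate 2). The falls numbered 0 without 44 h replicate 2 and the rises ranged between 1 and 8 over the fits that left out single libraries. Of 62 deubiquitinase genes 1 rose (USP1) and 1 fell (USP39), each 1.61% and below the shares over all genes tested. A higher mean was found for 41, with a median of 0.09. The USP1 call ended in 5 of the fits that left out 1 library (edgeR adjusted p up to 0.231). Of 27 antioxidant and redox genes 3 fell and 0 rose, with a median of -0.13. Over all genes tested 7.37% fell, and whether this list differs from that share was not tested. Its falls numbered 2 without replicate 3 or 5 of 12 h or any single replicate of 44 h. In this list edgeR found 0 higher at an unadjusted p under 0.05, and DESeq2 and limma-voom called 0 higher. PRDX4, a peroxiredoxin of the endoplasmic reticulum, fell 3.79-fold to 2.80 ± 0.537 CPM at 44 h, against 10.6 ± 2.68 CPM at 12 h. Of 11 oocyte transcription factor genes 1 fell and 1 rose, each 9.09%, against 7.37% falling and 2.5% rising over all genes tested. The rise was that of KLF4, a zinc finger factor, with 63.1 ± 3.43 CPM at 44 h and 51.6 ± 3.74 CPM at 12 h (edgeR adjusted p 0.0221), a call that ended without 12 h replicate 5 (0.12) or 44 h replicate 1 (0.0653) or 2 (0.118). FIGLA, which activates the zona genes in the mouse, had 8.43, 9.27 and 7.78 CPM at 44 h and 12.5, 12.9 and 13.8 CPM at 12 h and fell 1.54-fold (edgeR adjusted p 0.00761).

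Among the called genes with the highest counts, the falls included a protocadherin and a gene of an aminocyclopropane carboxylate synthase-like protein. PCDHGA4 had 623, 479 and 708 CPM at 44 h and 1714, 1636 and 1697 CPM at 12 h, a fall of 2.79-fold (edgeR adjusted p 4.95e-09). It shares its strand and locus (chromosome 2, 142983077 to 143156558) with 5 other annotated genes of the protocadherin region, so its reads are uncertain. ACCSL averaged 4309.6 ± 76.3 CPM at 44 h and 5006 ± 458 CPM at 12 h, with an edgeR adjusted p of 0.0469, and its call ended in 12 alternatives, 8 of which left out 1 library (0.0522 to 0.28). The rises with the highest counts besides JAG1 were all small. RNF20, a ubiquitin ligase of histone H2B, averaged 1429.5 ± 45.4 CPM at 44 h and 1179.7 ± 79.9 CPM at 12 h, DCBLD1, a membrane protein, 1164 ± 40.9 CPM at 44 h and 964 ± 23.1 CPM at 12 h, CECR2, of a chromatin remodelling complex, 1089 ± 32.6 CPM at 44 h and 944 ± 41.6 CPM at 12 h, and CEP95, a centrosomal protein, 1039 ± 24.7 CPM at 44 h and 893 ± 24.1 CPM at 12 h. Each rose 1.15-fold to 1.21-fold without overlap, though the calls of RNF20 and CEP95 ended in 2 and that of CECR2 in 7 of the fits that left out 1 library.

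Some markers of cumulus and granulosa cells, the cells stripped from the oocytes before RNA was taken, had counts in all 6 libraries. Of 28 such genes with a row, 15 were tested. Of the 15, 2 rose (13.3%, against 2.5% of all genes tested) and 3 fell (20%, against 7.37%). Their median log2 fold change was 0.12. The other 13 had at most 79 counts each over the 6 libraries, with INHA at 79, CYP19A1 at 30 and CYP11A1 at 22. The rises were CD44 and PTGS2 and the falls AMH, KITLG and INHBB; the list had 0 rises in 7 of the 12 fits that left out 1 library, and 1 fall when replicate 2 or 4 of 44 h or replicate 3 of 0 h was left out. The summed level of the 15 tested markers was 359, 345 and 353 CPM at 44 h and 408, 428 and 437 CPM at 12 h. AMH, KITLG and VCAN held most of it. AMH averaged 164 ± 11.13 CPM at 44 h and 220.4 ± 7.20 CPM at 12 h and fell 1.34-fold (edgeR adjusted p 0.00389). KITLG, the ligand of the KIT receptor, averaged 70.3 ± 5.42 CPM at 44 h and 97.1 ± 13.1 CPM at 12 h and fell by 0.47 on the log2 scale (edgeR adjusted p 0.0331), a call that ended on leaving out any 1 of the 3 libraries of 44 h, replicate 5 of 12 h or replicate 3 of 0 h (0.0578 to 0.138). The calls of CD44 and INHBB ended in 9 and 10 of the fits that left out 1 library. Those 11 with under 10 CPM at 12 h had sums of 33.8, 14.4 and 14.3 CPM at 44 h and 20.7, 18.5 and 16.9 CPM at 12 h. Replicate 1 of 44 h was the highest: it had 4.70 CPM of PTGS2, the inducible prostaglandin synthase, against 0.155 and 0.284 CPM in the other two 44 h libraries, and also led in VIM and NR5A2. The edgeR adjusted p of PTGS2 was 0.0452 on all libraries and 0.488 without that library, and its call ended in 8 of the fits that left out 1 library. The part of residual cumulus RNA in the falls and rises described above was not tested. Without 44 h replicate 1 the fit called 133 rises and 737 falls. Leaving out 44 h replicate 2 gave 130 rises and 708 falls, and leaving out 44 h replicate 4 gave 251 and 854. Leaving out 12 h replicate 5 gave 135 and 744.

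The levels at 28 h and 0 h place these changes in time. Of the 956 genes that fell, 885 had a 28 h mean between the 44 h and 12 h means, and for 839 (87.8%) the 28 h mean lay nearer to 12 h than to 44 h on a log2 scale with a pseudocount of 0.1 CPM. Of the 324 that rose, 296 had a 28 h mean between the others, and 211 (65.1%) lay nearer to 12 h; among genes not called the share was 54.8%. ZP3, for example, stood at 1620.2 ± 319, 1222 ± 148, 727 ± 82.1 and 169 ± 6.77 CPM at 0, 12, 28 and 44 h. RACK1 stood at 45.2 ± 2.99, 39.8 ± 6.60, 25.4 ± 2.55 and 6.94 ± 0.465 CPM at the same times. At 0 h, 632 of the genes that fell (66.1%) had a mean above that at 12 h, against 51.2% of all genes tested. PDK4 was different in course, at 1.42 ± 0.679, 10.7 ± 4.38, 1.47 ± 0.408 and 1.16 ± 0.701 CPM at 0, 12, 28 and 44 h, so its 44 h level lay near that of 0 h. AKAP12 had 16.5 ± 1.87, 33.2 ± 7.22, 19.0 ± 1.99 and 19.96 ± 2.54 CPM at the 4 times. Among the rises, FLNA had a higher mean at each time, with 0.579 ± 0.194, 2.01 ± 0.890, 10.6 ± 5.91 and 25.2 ± 1.42 CPM, while KIF1C peaked in between, with 3.46 ± 0.458, 28.3 ± 3.88, 86.3 ± 8.42 and 43.98 ± 6.76 CPM. These courses describe means, and the 0 h and 28 h levels were not tested here.

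**Figure D4:**
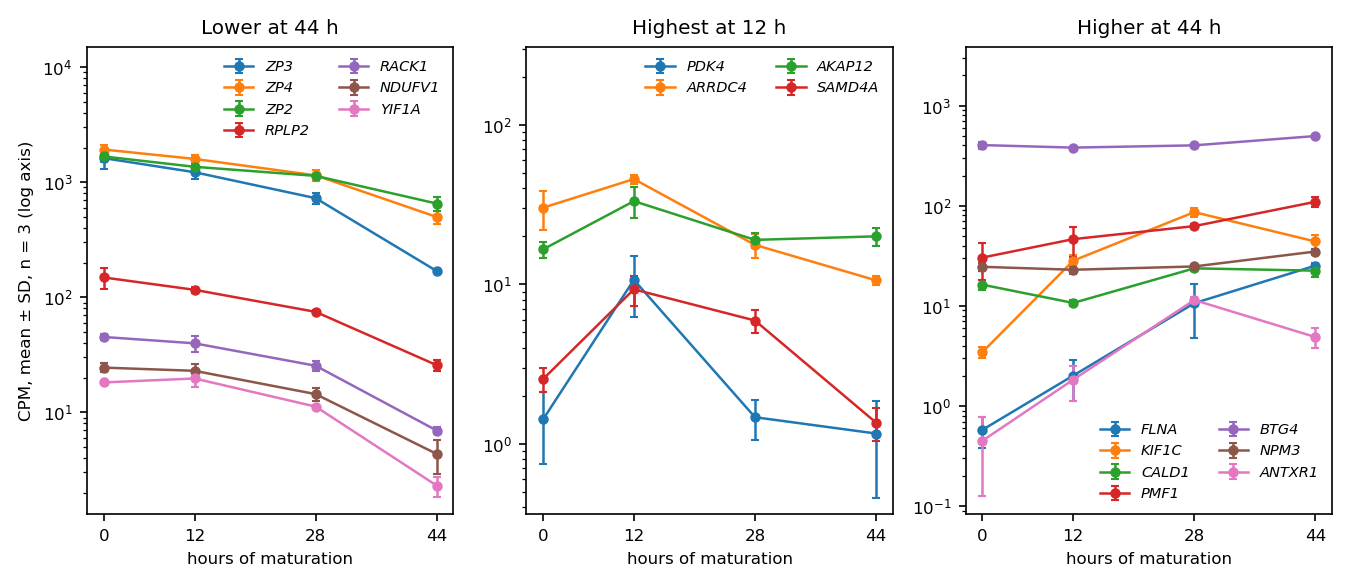
Mean CPM ± SD of 3 libraries at 0, 12, 28 and 44 h on log axes, for genes lower at 44 h than at 12 h (left), genes with their highest mean at 12 h (middle) and genes higher at 44 h than at 12 h (right). On the log axis the zona genes, RPLP2, RACK1, NDUFV1 and YIF1A drop mostly between 28 and 44 h. In CPM, ZP3 goes from 1620 at 0 h to 727 at 28 h and 169 at 44 h. PDK4 and SAMD4A peak at 12 h, and KIF1C and ANTXR1 peak at 28 h.

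Gene length and abundance moved with the direction of change. The gene models of the genes that fell had a median length of 4354.5 bases, those of the genes that rose 6396 bases and those of genes not called 5629 bases. Split by length into 4 equal bins, the bin of shortest models held 3141 genes, of which 373 (11.9%) fell and 50 (1.59%) rose, and in the bin of longest models 184 of 3140 (5.86%) fell and 90 (2.87%) rose. Cytosolic ribosomal protein genes and nuclear respiratory genes are short, with medians of 1949 and 2012.5 bases. The bin of shortest models held 122 members of these lists and of the mitochondrial ribosomal list. Without those 122, 312 of its 3019 remaining genes fell (10.3%). Across 12563 genes the log2 fold change had a Spearman correlation of 0.11 with length, a description over genes that share the same libraries. By mean CPM over the 12 libraries, 196 genes (7.72%) rose and 212 (8.35%) fell among the 2540 genes above 100 CPM, while 100 (1.87%) rose and 568 (10.6%) fell among the 5343 genes between 10 and 100 CPM. The part of length in the falls was not tested.

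**Figure D5:**
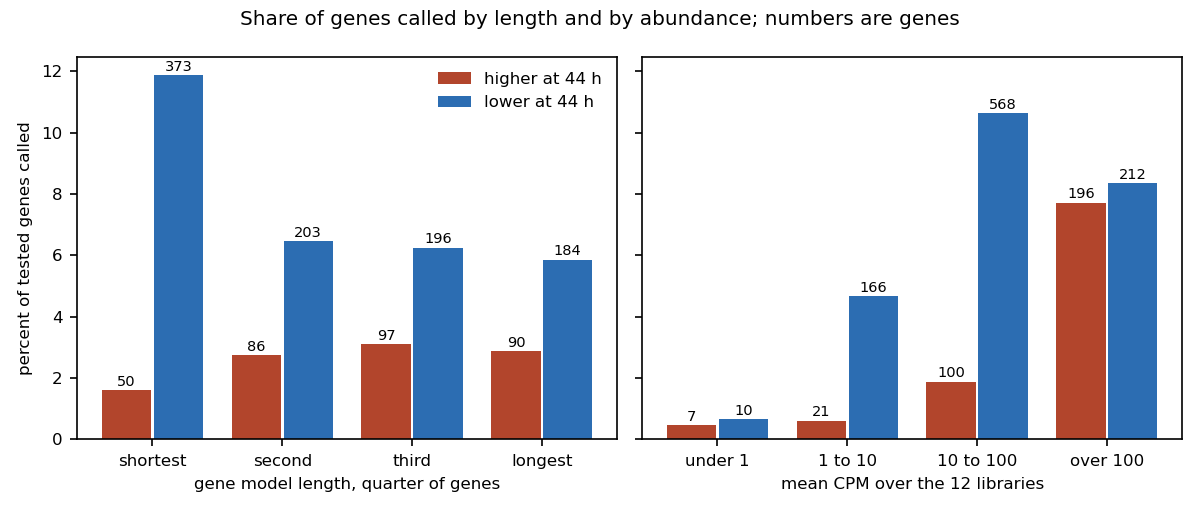
Percent of tested genes that rose (red) or fell (blue) by the edgeR test, over 4 equal bins of gene model length (left) and over classes of mean CPM (right), with the number of called genes above each bar. Falls are most frequent in the bin of shortest models, at 11.9%, and rises in the class above 100 CPM, at 7.72%.

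The authors' deposited table lists 1300 genes for the same pair of times at an FDR under 0.05, 354 higher and 946 lower at 44 h. Of these, 1122 were also called here, 87.7% of the calls here and 86.3% of theirs, and 0 of the shared calls had opposite signs. Another 15 of the genes in the authors' deposited table were not among the genes tested here.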

How the data were processed

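Total RNA of denuded oocytes was sequenced on an Illumina instrument, per the labels' protocols. The authors deposited raw counts per gene for 28965 genes on Sscrofa 11.1, the build named in the submitters' processing notes, beside RPKM values, which were used here only to derive gene model length from the counts. The authors' deposited comparison table of log2 fold changes and p-values adjusted for FDR was used only for the overlap of calls; the submitters' processing notes name DESeq2. The aligner and the counting rule are not given in the sources used here. Symbols came from the file for 16246 genes and from a name table for 777, and 11942 genes kept their identifier.

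All 12 libraries entered 1 edgeR 4.0.16 quasi-likelihood fit in R 4.3.3, with time as the factor, 8 residual degrees of freedom and TMM factors between 0.979 and 1.02. The filterByExpr function, at its minimum count of 10, removed genes with low counts, and p-values were adjusted by Benjamini-Hochberg over the 12977 genes tested, at a threshold of 0.05. No 2 libraries held identical values. Errors are the SD over 3 libraries; for genes at 0 the floor is 3 counts over the group and covers counting error only.

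Genes were named by rule: the 10 largest rises and falls among called genes with a symbol in the file, 10 or more mean CPM at the higher time and groups that did not overlap; up to 3 rising and 3 falling called members of each list by adjusted p; a panel of 35 genes, of which 30 were tested; called genes with 0 counts in all libraries of a time; and the 5 called genes with the highest CPM in each direction. The rule gave 135 genes. Some of them are not reported here. Of the 135, 56 overlap another annotated gene. The members and the gene lists were chosen with earlier results of these data known. DESeq2 1.42.0, limma-voom (limma 3.58.1), other scalings and filters, the 6 libraries alone, a block for replicate number and the omission of single libraries were the alternatives.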

Additional observations from a re-analysis of the deposited data

How the results depend on the processing

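The count of genes differing between 44 h and 12 h was 1250 to 1334 under limma-voom, the other scalings, the other low-count filters, the 6 libraries alone and the exclusion of mitochondrially encoded genes, and 1642 under DESeq2. DESeq2 called 554 rises, over 1.5 times the 324 of edgeR. Leaving out 1 library gave 838 to 1488 calls, of which 130 to 459 were rises and 708 to 1029 falls, with the lowest totals without 44 h replicate 2 (838), 44 h replicate 1 (870) and 12 h replicate 5 (879). The share of falls among the calls lay between 66.3% (DESeq2) and 89.0% (replicate block). The 44 h and 12 h libraries share only replicate number 1, whose deviations from the group means correlated at 0.0563, so the numbers were not taken to pair the libraries. The fit over all 12 libraries with the replicate number as a block called 834 genes, 92 of them rises and 742 falls. Among the named genes, ADCY3, BTF3, CPSF4, DCBLD1 and PPP1R14B lost the call under the replicate block alone (edgeR adjusted p 0.0609 to 0.167). AK5 lost it there too (edgeR adjusted p 0.0615), and DESeq2 gave AK5 no adjusted p. No named gene changed sign in an alternative when it was called there or in the main edgeR fit. Signs of genes called in neither were not compared. Of the 121 called genes named by the rule, 47 lost the call in at least 1 alternative; the cause was not tested. Of 1534 genes under 1 CPM, 7 rose and 10 fell, and depth limits what could be called there.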

Other observations

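Named after its values were seen, RIT1, a small GTPase, had 14, 18 and 11 counts in the 44 h libraries and 4, 0 and 2 counts in the 12 h libraries, with an edgeR adjusted p of 0.0495. ANTXR1, a receptor that binds extracellular matrix, had 151, 134 and 90 counts at 44 h and 48, 56 and 26 counts at 12 h, a log2 fold change of 1.42 (edgeR adjusted p 0.00238). SAMD4A, an RNA-binding protein related to fly Smaug, had 37, 42 and 25 counts at 44 h and 262, 165 and 238 counts at 12 h, a log2 fold change of -2.77. The libraries of the 2 times did not overlap for RIT1, ANTXR1 or SAMD4A.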
